A study of Mus musculus with 6 samples.

Results

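The small GTPase Rap1, the exchange factors that switch it on and effectors that act downstream of it were followed in aortic valve tissue of control and caAcvr1:Nfatc1Cre mice. The set holds 10 of the 23107 genes in the deposited counts: the exchange factors Rapgef1 to Rapgef6, the GTPases Rap1a and Rap1b, and the effectors Rasip1 and Krit1. It was chosen on measured values of the comparison itself, because Rapgef5 was lower in every mutant library, so the difference in Rapgef5 is given as a description without a p-value. All 10 genes passed the filter on low counts and entered the test.

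Valve RNA was sequenced from 3 control and 3 mutant libraries of outbred mice aged 4 months. The mutants carried both caAcvr1, a transgene for a constitutively active form of the BMP receptor Acvr1 that Cre recombinase turns on, and Nfatc1Cre, a Cre cassette knocked into the Nfatc1 locus. This Cre is active in the endocardium, in valve interstitial cells and at the junction of leaflet and wall, and not in cardiac or smooth muscle. The controls are labelled wild type, but the study's methods allow controls with either allele alone or with neither. Which of these were sequenced, the sex of the mice and whether mice were pooled are not stated, so p-values measure the spread between libraries, which may be partly technical. Each control library held 46180666 to 55728854 fragments, and each mutant library 32218343 to 53129459. Acvr1 lay at 49.1 to 67.4 CPM (counts scaled to a common library total) in the controls and 49.9 to 57.9 CPM in the mutants. The counts of this gene thus do not separate the genotypes. Whether fragments of the transgene were counted under Acvr1 was not tested.

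Rap1 is a molecular switch, inactive with GDP bound and active with GTP bound. Exchange factors, which remove the GDP, turn it on, and GTPase-activating proteins turn it off. Active Rap1 strengthens the adhesion of cells through integrins and, in endothelial cells, tightens junctions built on VE-cadherin. The exchange factors differ in what drives them. Rapgef1 is brought to the membrane by Crk adaptors, Rapgef3 and Rapgef4 (Epac1 and Epac2) are opened by cyclic AMP, Rapgef2 and Rapgef6 carry PDZ domains, and Rapgef5 (also called MR-GEF) binds M-Ras. Rasip1 is an endothelial protein needed for vessel lumens, and Krit1 is a scaffold whose loss causes cerebral cavernous malformations.

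The sequences that bear on how these genes were read are those of the Rap1 pair and of the start of Rapgef5. Rap1a and Rap1b encode nearly alike proteins, so the first question is whether their fragments could be told apart. Their coding sequences (GENCODE transcripts of GRCm38, 552 bases each) are identical at 451 bases, or 81.7%, and the longest stretch without a difference is 20 bases. The first 120 coding bases of both, in which all 17 differences (in capitals) fall on the third position of a codon, are:

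Rap1a: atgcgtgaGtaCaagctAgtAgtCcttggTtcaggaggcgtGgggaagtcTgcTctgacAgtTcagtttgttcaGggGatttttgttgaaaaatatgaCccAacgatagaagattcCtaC

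Rap1b: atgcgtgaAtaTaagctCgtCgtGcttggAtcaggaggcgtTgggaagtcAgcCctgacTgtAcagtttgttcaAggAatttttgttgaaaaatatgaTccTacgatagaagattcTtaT

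Rap1a and Rap1b share no stretch of 50 bases anywhere in their transcripts. By contrast, 8.27% of the stretches of 50 bases in Rap1a transcripts occur in other genes, nearly all of them in the processed pseudogene Gm9392, which is not listed in the counts.

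Rapgef5 spans bases 117516479 to 117759737 of chromosome 12 (GRCm38, that is mm10) on the plus strand, with 7 annotated transcripts and 12785 bases of exon. RefSeq places 2 starts in this gene. The 250 bases before each (GRCm38.p6, plus strand, 5′ to 3′) are shown because Rapgef5 is the gene that chose the set, with GC boxes (GGGCGG on either strand) in capitals:

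Rapgef5, chr12:117516276-117516525: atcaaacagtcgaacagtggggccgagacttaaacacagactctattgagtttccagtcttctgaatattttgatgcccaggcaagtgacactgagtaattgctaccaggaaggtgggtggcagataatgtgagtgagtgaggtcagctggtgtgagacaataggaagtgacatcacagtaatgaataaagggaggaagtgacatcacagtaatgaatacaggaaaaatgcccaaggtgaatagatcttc

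Rapgef5, chr12:117533678-117533927: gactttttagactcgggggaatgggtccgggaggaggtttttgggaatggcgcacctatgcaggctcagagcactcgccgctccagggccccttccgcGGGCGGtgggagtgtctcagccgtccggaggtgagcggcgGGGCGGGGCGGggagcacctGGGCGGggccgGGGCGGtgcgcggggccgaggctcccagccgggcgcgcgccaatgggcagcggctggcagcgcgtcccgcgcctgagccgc

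The upstream window is 43.6% G and C and the downstream window 74.8%, beside a median of 52.4% over the 32851 start windows of the genome table. GC boxes occur 5 times in the downstream window, counting overlaps, and not in the upstream one, and 32.7% of all windows hold at least 1. The downstream window also holds a CCAAT box, as do 33.8% of all windows. Neither window holds the SMAD element GGCGCC, which 9.6% of all windows hold on either strand, or the cyclic AMP response element TGACGTCA, which 1.5% hold. Among the 12 start windows found for 9 of the 10 genes (Rap1a was not matched), GGCGCC occurs in that of Rapgef4 and TGACGTCA in that of Rap1b. A match of letters does not show binding, and counts per gene do not tell the 2 starts of Rapgef5 apart.

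Each mutant library held less Rapgef5 than any control. Control replicates 1, 2 and 3 stood at 24.2, 27.3 and 25.3 CPM, and mutant replicates 1, 2 and 3 at 15.7, 17.2 and 16.3 CPM. The spread within both groups was small, with means of 25.6 ± 1.53 CPM for controls (SD, n = 3) and 16.4 ± 0.737 CPM for mutants (SD, n = 3). The log2 fold change, mutants against controls, was -0.64 with a standard error of 0.11, and it ran from -0.68 to -0.59 as each library was left out. Behind these levels stand 1162 to 1378 counts in a control and 519 to 814 in a mutant. Of all 15354 genes tested, 4.83% were likewise lower in all mutants than in all controls, and 4.04% were higher. In the set 1 gene of 10, Rapgef5 itself, was lower in this way and 0 were higher, and nothing is read from that count because it chose the set. The adjusted p was under 0.05 for 0 genes, or 0%, in the edgeR test and the smallest was 0.999, while 3.45% of genes had an unadjusted p under 0.05. DESeq2 called 0.169% of genes.

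The other exchange factors did not follow Rapgef5. Rapgef1 was the steadiest, at 72.8, 79.6 and 68.6 CPM in the controls and 73.6, 73.7 and 74.6 CPM in the mutants. Its mutant values fell inside the range of the controls, with a log2 fold change of 0.01 (standard error 0.09). Rapgef2 was read at 34.8, 45.8 and 33.6 CPM in the controls and 33.8, 40.6 and 27.9 CPM in the mutants. Control replicate 2 was the highest library and mutant replicate 3 the lowest, and the log2 fold change of -0.16 (standard error 0.18) came to -0.00 without control replicate 2. Rapgef6, its close relative, stood at 35.5, 41.6 and 32.6 CPM in the controls and 32, 33.2 and 44.0 CPM in the mutants. Here the highest library was a mutant, and the log2 fold change was -0.01 (standard error 0.16).

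The cyclic AMP-driven pair differed in how evenly the libraries were filled. Rapgef3 lay at 54.9, 51.4 and 54.6 CPM in the controls and 47.5, 57.2 and 58.1 CPM in the mutants, with overlapping groups and a log2 fold change of 0.02, below its standard error of 0.11. Rapgef4 was the most variable of the 10 genes, at 17.9, 5.56 and 14.3 CPM in the controls and 19.7, 12.7 and 13.7 CPM in the mutants. Control replicate 2 stood far below the other libraries. The log2 fold change of Rapgef4 was 0.29 (standard error 0.41), and it was -0.06 without control replicate 2 and 0.63 without control replicate 1. The within-group SD of its log2 CPM was 0.67, a spread exceeded by 13.2% of the genes tested, while that of Rapgef5 was 0.08, exceeded by 94.2%. A choice for groups that do not overlap favours a small spread, so nothing is read from the value of Rapgef5. It was also not particular to this gene, with 0.08 for Rapgef1 and 0.06 for Rap1a.

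**Figure D1:**
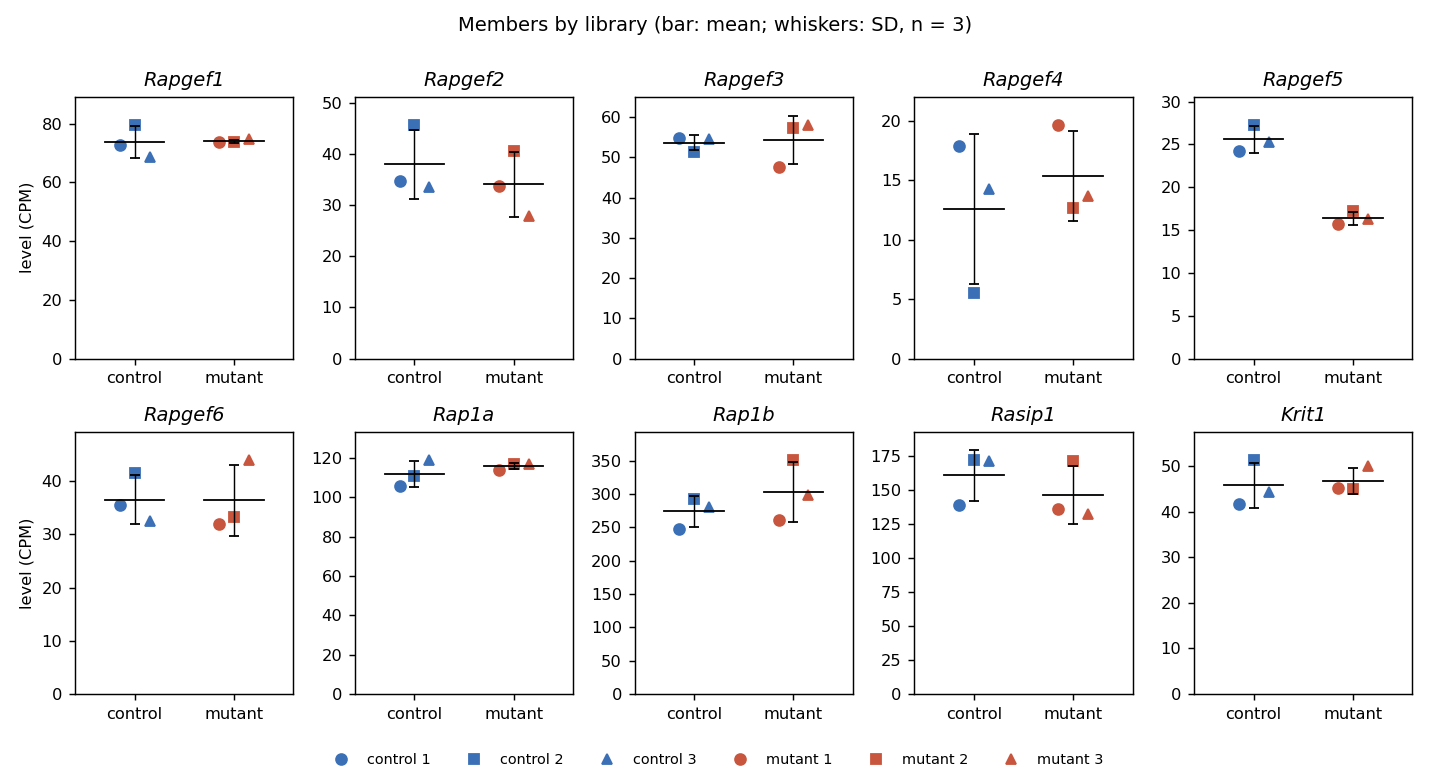
Level in CPM (vertical axes, each from 0) of the 10 genes in 3 control (blue) and 3 mutant (red) libraries, with the mean as a bar and the SD as whiskers (n = 3). Rapgef5 is the gene whose groups do not overlap, with mutants at 15.7 to 17.2 CPM below controls at 24.2 to 27.3 CPM, and Rapgef4 spreads most widely.

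Rap1 itself was abundant and even. Rap1a was read at 106, 111 and 119 CPM in the controls and 114, 117 and 117 CPM in the mutants. All mutant values lay within the control range, and the log2 fold change was 0.05 (standard error 0.09). Rap1b was read at 248, 293 and 281 CPM in the controls and 261, 351 and 299 CPM in the mutants. The highest library was mutant replicate 2, and the log2 fold change of 0.15 (standard error 0.15) came to 0.03 without that library and to 0.25 without mutant replicate 1. Per length, Rap1b exceeded Rap1a in all 6 libraries, 2.12, 2.38 and 2.13 times in the controls and 2.07, 2.71 and 2.31 times in the mutants. The summed level of both genes ran from 354 to 405 CPM in the controls and from 375 to 468 CPM in the mutants.

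The effectors overlapped between the groups too. Rasip1 stood at 139, 172 and 171 CPM in the controls and 136, 171 and 132 CPM in the mutants, and the log2 fold change was -0.14 (standard error 0.15). Control replicate 1 lay among the mutants, and mutant replicate 2 among the controls. Leaving out mutant replicate 2 gave -0.27, and leaving out mutant replicate 3 gave -0.07. Krit1 was read at 41.8, 51.4 and 44.3 CPM in the controls and 45.2, 45.1 and 50 CPM in the mutants, with a log2 fold change of 0.03 and a standard error of 0.11. The reading of Rasip1 carries a limit of annotation. Its exons share 654 bases on the same strand with Izumo1, a gene for a sperm protein, which itself had 5 to 15 counts per library, and 498 bases with the antisense gene A030001D20Rik. Whether the counting used strand is not stated, so fragments of Rasip1 and its antisense partner cannot be told apart.

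Together the 9 genes other than Rapgef5 had log2 fold changes from -0.16 to 0.29 with a median of 0.02, beside a median of 0.01 over all genes tested. Of these, 6 were higher and 3 lower in the mutants, and in 8 the change was smaller than its standard error. Adjusted p was 0.999 for each of them by edgeR, and 0 of the 9 had an unadjusted p under 0.05. These p-values do not show that levels were equal. Against each of the 9 genes, the ratio of Rapgef5 counts was lower in all mutants than in any control, a measure that needs no scaling between libraries. The log2 ratio of Rapgef5 to Rapgef1, for example, ran from -1.59 to -1.44 in the controls and from -2.23 to -2.1 in the mutants. Against Rapgef4 the groups nearly met, at 0.43 both in the lowest control and in the highest mutant as rounded, and against Rapgef2 they lay close, at -0.75 and -0.77. These ratios carry the same Rapgef5 counts that chose the set and are no further evidence.

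To set the genes side by side, levels were divided by exon length. In the controls Rap1b led at 95.0 ± 8.10 CPM per kb (SD, n = 3), followed by Rasip1 at 50.2 ± 5.92 and Rap1a at 43.0 ± 2.54 CPM per kb. Rapgef1 at 9.97 ± 0.748 and Rapgef3 at 8.47 ± 0.307 CPM per kb were the highest of the exchange factors. Rapgef6, Rapgef2, Krit1, Rapgef5 and Rapgef4 followed at 2.8, 2.71, 2.1, 2 and 1.89 CPM per kb. Among neighbours in this order, the ranges of the controls did not overlap between Rap1b and Rasip1, Rap1a and Rapgef1, Rapgef1 and Rapgef3, Rapgef3 and Rapgef6, or Rapgef2 and Krit1. They overlapped for Rasip1 and Rap1a, Rapgef6 and Rapgef2, Krit1 and Rapgef5, and Rapgef5 and Rapgef4, so the ranges alone do not order these neighbours. Within libraries, Krit1 still stood above Rapgef5 in 6 of 6, with all exons, the longest transcript and coding length alike. With all exons, Rasip1 stood above Rap1a in 4 of 6. In the mutants Rapgef5, at 1.28 ± 0.0576 CPM per kb (SD, n = 3), was the lowest of the 10, while with coding length Rapgef4 was the lowest of the exchange factors. The rank of Krit1 depends on its length. Its annotated exons sum to 21853 bases and its longest transcript has 5582, and with the latter it stood at 8.21 CPM per kb in the controls and ranked 6 instead of 8. The order of Rapgef1 over Rapgef3 held in 6 of 6 libraries with all exons and in 2 of 6 with the longest transcript.

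**Figure D2:**
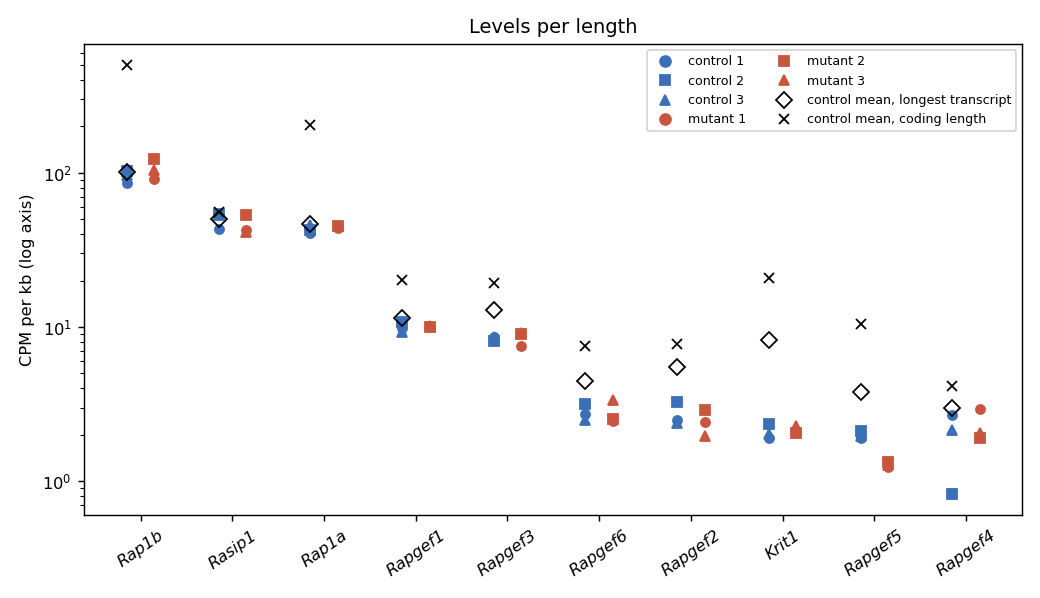
Level per kilobase of exon (log axis) of the 10 genes in each library, ordered by the control mean, with the control mean per kilobase of the longest transcript (diamonds) or of coding sequence (crosses). Rap1b, Rasip1 and Rap1a lie above the exchange factors on each scale, and Krit1 moves most between scales.

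Among the 6 exchange factors, Rapgef1 and Rapgef3 made up most of the summed level per length. Rapgef1 held 35.8% in the controls and 36.6% in the mutants as means, and Rapgef3 held 30.4% and 31.2%. The share of Rapgef5 was 6.70, 7.53 and 7.34% in control replicates 1 to 3, and 4.64, 4.85 and 4.56% in mutant replicates 1 to 3. It was the one exchange factor whose shares did not overlap between the groups, with a difference of -2.51 percentage points. The share of Rapgef5 carries the same counts that chose the set, so its separation is no further evidence. The size of the share depends on the length used, and with coding length it was 15.1% in the controls and 10.2% in the mutants, a difference of -4.94 points. The summed level of the family ran from 26.9 to 28.3 CPM per kb in the controls and from 26.5 to 28.0 in the mutants. These values are of RNA and say nothing of the exchange activity of the proteins.

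**Figure D3:**
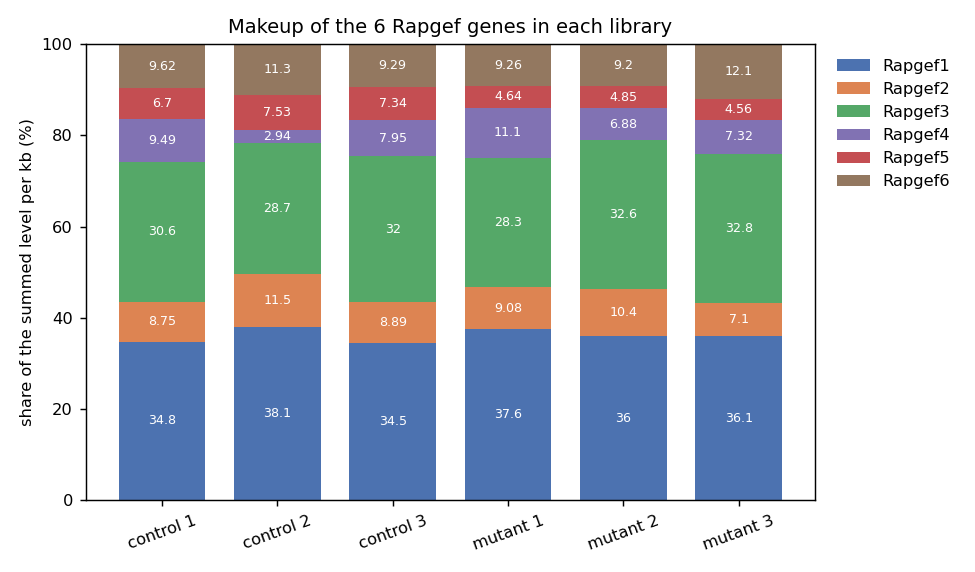
Share of each exchange factor (percent, stacked to 100) in the summed level per kilobase of Rapgef1 to Rapgef6, for each library, by exon length. The Rapgef5 share lies between 6.70 and 7.53% in the controls and between 4.56 and 4.85% in the mutants. It carries the counts that chose the set and is shown as a description.

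The pathway around these genes was described with 7 lists holding 77 genes, of which 76 could be tested. The edgeR test called 0 and DESeq2 called 0 at an adjusted p under 0.05, 33 were higher and 43 lower in the mutants, and 5 had an unadjusted p under 0.05, beside 3.45% of all genes. All mutants lay below all controls in 10 of the 76, or 13.2%, and above them in 3, or 3.95%, beside the 4.83% and 4.04% of all genes given above. The median log2 fold change was -0.02. Of all genes tested, 47.8% were lower in the mutants, which is the share to set beside the counts of each list. Up to 3 genes with the smallest unadjusted p are named from each list, not always in that order, and edgeR gave those an adjusted p of 0.999. Crk, Crkl, Adcy4, Ccm2, Pdcd10, Klf4 and the further KLF targets below were named after their values were seen.

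The GTPase-activating proteins, which oppose the exchange factors, were lower in 6 of 8 and had a median log2 fold change of -0.23. Sipa1 (SPA-1), which acts on Rap, was read at 73.6, 80.2 and 77.5 CPM in the controls and 60.0, 72.8 and 62.8 CPM in the mutants. Its mutants all lay below its controls, with a log2 fold change of -0.24 (standard error 0.10). Rasa4, on the same list, did not overlap either, at 19.1, 29.6 and 17.9 CPM in the controls and 10.3, 15.2 and 17.3 CPM in the mutants. Its log2 fold change of -0.64 (standard error 0.26) came to -0.37 without control replicate 2. For Sipa1l3 it was -0.53 (standard error 0.30) with overlapping groups, and -0.13 without control replicate 2. Of 7 other genes on the activating side, 6 of them exchange factors and 1 the chaperone Rap1gds1, 5 were higher and 2 lower, led by Rasgrp1, an exchange factor of lymphocytes, at 0.83 (standard error 0.46) with the highest level in mutant replicate 2 and 0.23 without that library. The 3 Rap2 genes had log2 fold changes of -0.04 to 0.14.

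Among 11 adaptors that recruit Rapgef1 or bind Rapgef2, 7 were lower and the median log2 fold change was -0.15. Magi1, a junctional scaffold, stood at 13.8, 19.5 and 13.1 CPM in the controls and 11.1, 10.8 and 11.4 CPM in the mutants, without overlap, at -0.48 (standard error 0.18), and at -0.27 without control replicate 2. Bcar1 (p130Cas), a docking protein for Crk, was at -0.23 (standard error 0.10), also without overlap. Crk and Crkl, which carry Rapgef1, were at 0.05 and 0.02. Of 20 genes that make, break down or respond to cyclic AMP, 15 were lower and 5 higher. The adenylyl cyclase Adcy2 was read at 4.14, 3.03 and 4.48 CPM in the controls and 2.70, 1.59 and 2.32 CPM in the mutants, without overlap, at -0.81 (standard error 0.31). Another cyclase, Adcy4, went the other way without overlap, at 0.30 (standard error 0.14), and stood at 0.15 without mutant replicate 2. The phosphodiesterase Pde3a and the cyclase Adcy3 were at -0.56 and -0.55 with overlapping groups, and at -0.32 and -0.33 without control replicate 2.

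Of 16 further effectors and their partners, 9 were higher and 7 lower, with a median of 0.00. Tiam1, an activator of Rac, was at -0.48 (standard error 0.21) and talin 1 (Tln1), which links integrins to actin, at -0.39 (standard error 0.20), both without overlap. Tln1 rested on control replicate 2, at 519 CPM beside 329 and 328 CPM in the other controls, and was at -0.13 without it. Arhgap29, which Rasip1 and Radil bring to Rap1, was at -0.29 (standard error 0.22) with overlapping groups and at 0.00 without control replicate 2. Krit1 acts with Ccm2 and Pdcd10 to hold back the kinase Map3k3 and the factors Klf2 and Klf4. The list of that axis had 11 genes tested, 6 higher and 5 lower, with a median of 0.00. Ccm2 and Pdcd10 were both at 0.00. Klf2, a transcription factor of endothelial cells under flow, was read at 465, 516 and 536 CPM in the controls and 571, 713 and 608 CPM in the mutants, with all mutants above all controls. Its log2 fold change was 0.32 (standard error 0.15), from 0.22 to 0.38 as single libraries were left out. Mapk7, a kinase upstream of Klf2, was at -0.50 (standard error 0.24) with overlapping groups, and at -0.26 without control replicate 2. Map3k3 was at -0.18 (standard error 0.10), without overlap, and at -0.09 without control replicate 2. Klf4 overlapped at 0.26, and was at 0.11 without control replicate 1. The 6 genes of the list that follow KLF factors or Krit1 loss overlapped as well, from Adamts4 at 0.42 and Thbs1 at 0.23 through Nos3 at 0.11, Thbd at 0.00 and Adamts1 at -0.02 to Adamts5 at -0.37. Thbs1 stood at -0.08 without control replicate 2 and at 0.70 without control replicate 1, and Nos3 at -0.12 without mutant replicate 2. The signs of Thbd and Adamts1 turned with single libraries too, and without mutant replicate 1 Adamts4 stood at 0.13 and Adamts5 at -0.14.

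**Figure D4:**
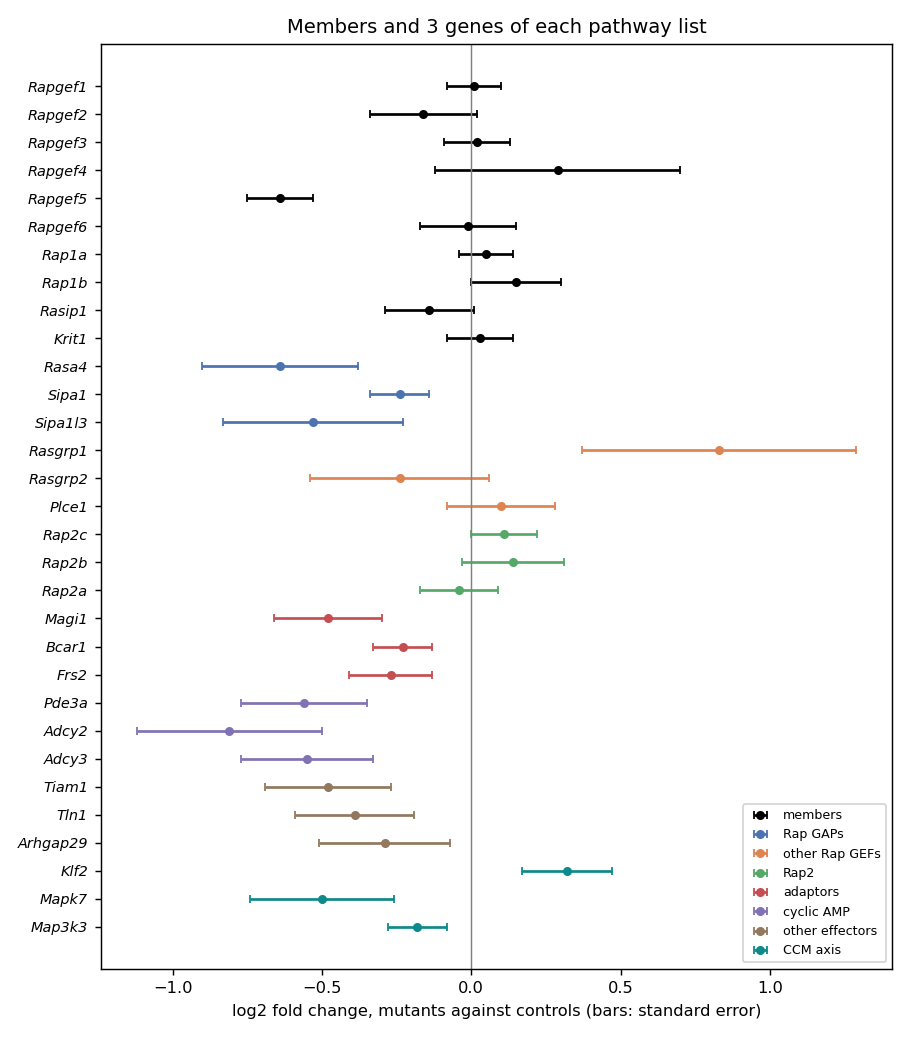
Log2 fold change, mutants against controls, with its standard error, for the 10 genes (black) and up to 3 genes with the smallest unadjusted p from each of 7 pathway lists (colours). Rapgef5 at -0.64 lies apart from the other 9 genes at -0.16 to 0.29, and no gene shown passed the adjusted threshold.

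In whole valve tissue, fewer cells of a type and less RNA per cell cannot be told apart, so marker genes were set beside the members. Summed endothelial markers (14 genes, 7 higher and 7 lower in the mutants, none at 0) ran from 2841 to 4022 CPM in the controls and from 3158 to 3815 CPM in the mutants. Their part in the difference in Rapgef5 was not tested. Within the list, Cldn5 at -0.69 (standard error 0.16) and Robo4 at -0.55 (standard error 0.17) were lower in every mutant, though edgeR gave both an adjusted p of 0.999. Rasip1, itself endothelial, was highest in control replicate 2, control replicate 3 and mutant replicate 2, and the same 3 libraries had the highest summed endothelial markers. Per 1000 CPM of these markers, Rasip1 stood at 42.8 to 48.8 in the controls and 40.6 to 44.8 in the mutants.

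Of the 68 marker genes tested over all lists, edgeR and DESeq2 each called 0 at an adjusted p under 0.05, and 9 had an unadjusted p under 0.05 in edgeR, beside 3.45% of all genes. All mutants lay below all controls in 5 of the 68 and above in 5, beside 4.83% and 4.04% of all genes. Leukocyte markers (8 genes, all higher in the mutants, median log2 fold change 0.36) summed to 525 to 604 CPM in the controls and 662 to 752 CPM in the mutants. Smooth muscle markers (8 genes, 7 lower, 3 of them in every mutant, median log2 fold change -0.87) summed to 6937 to 13987 CPM in the controls, highest in control replicate 2, and to 3865 to 7054 CPM in the mutants, so the leukocyte sums separated the groups and the smooth muscle sums overlapped. Their part in the difference in Rapgef5 was not tested. Cardiac muscle markers (8 genes, 7 higher) ran from 10478 to 32971 CPM in the controls and from 16498 to 34050 CPM in the mutants, though the tissue was labelled aortic valve. Rapgef4 was lowest in control replicate 2, then in mutant replicates 2 and 3, and the cardiac markers were lowest in the same 3 libraries in the same order. Per 1000 CPM of cardiac markers, Rapgef4 lay at 0.433 to 0.610 in the controls and 0.576 to 0.771 in the mutants, and the part of heart muscle in its spread was not tested. Interstitial markers (10 genes, 7 higher) summed to 14396 to 15290 CPM in the controls and 13190 to 17163 CPM in the mutants, and none of them was at 0 in any library. Platelet and red cell markers (8 genes, 7 higher, median log2 fold change 0.45) ran from 659 to 8930 CPM over all 6 libraries, with overlapping groups. That sum follows the hemoglobin gene Hba-a1, which was at 7406, 1814 and 0 CPM in the controls and at 882, 5872 and 0 CPM in the mutants, while Hbb-b1 was at 133 CPM in control replicate 3 and 251 CPM in mutant replicate 3. Adipocyte markers (6 genes, all lower, median -0.61) ran from 38.1 to 155 CPM, also overlapping. Neuron and Schwann cell markers (6 of 8 tested, 5 higher and 1 lower) stayed between 34.8 and 61.5 CPM, and the neuronal genes Snap25 and Rbfox3 did not exceed 0.481 and 0.314 CPM.

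**Figure D5:**
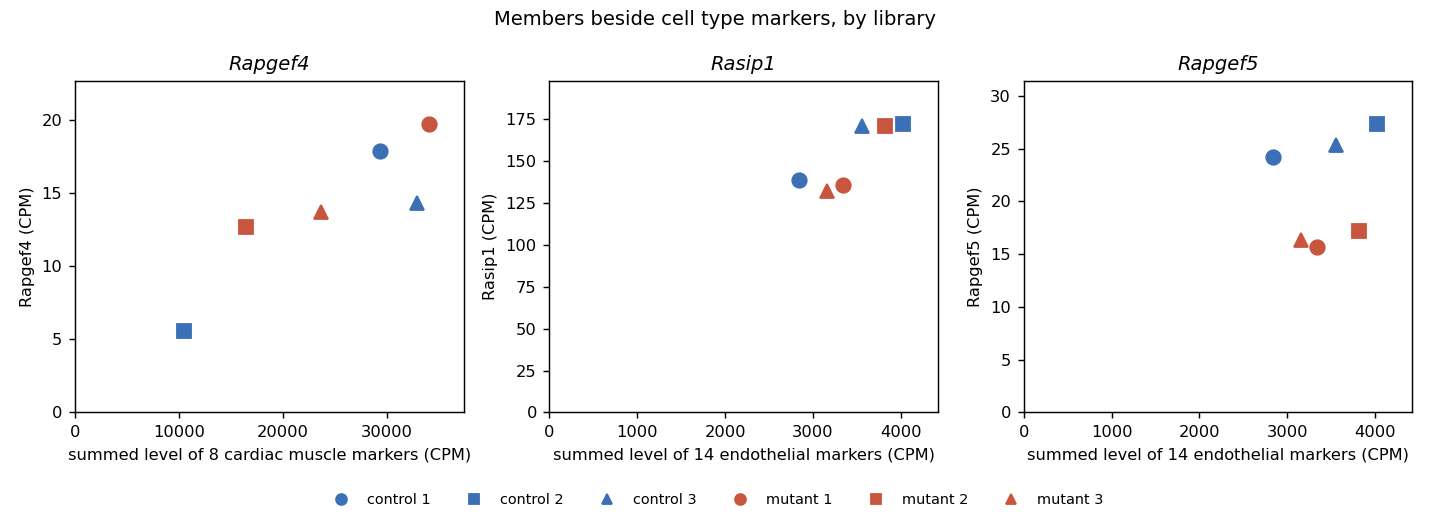
Level of Rapgef4, Rasip1 and Rapgef5 in CPM (vertical axes) against the summed CPM of 8 cardiac or 14 endothelial markers (horizontal axes) in each of the 6 libraries. Rapgef4 is lowest in the library with the fewest cardiac markers, Rasip1 is highest in the 3 libraries with the most endothelial markers, and Rapgef5, whose difference chose the set, is shown as a description.

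The genes whose log2 CPM followed that of Rapgef5 most closely over the 6 libraries, out of 11459 with a mean of at least 5 CPM, were Csnk1g2, Plekhm3, Mtap4, Txnip and Psmd5. Their Pearson r with Rapgef5 ran from 0.984 to 0.991. The likeness is a description, since libraries of both groups enter it and it includes the difference that chose Rapgef5. The steps were smaller in each of these genes, with log2 fold changes from -0.38 for Plekhm3 to -0.13 for Psmd5. Csnk1g2, a casein kinase, was read at 210, 221 and 215 CPM in the controls and 186, 190 and 183 CPM in the mutants. Plekhm3 was read at 19.1, 19.8 and 18.3 CPM in the controls and 14, 15.2 and 14.7 CPM in the mutants. In both genes, as in Rapgef5, control replicate 2 was the highest control and mutant replicate 2 the highest mutant. The choice by correlation favours such a shared order. Psmd5 departed from it, with mutant replicate 3 at 57.3 CPM beside 57.2 CPM in mutant replicate 2.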

How the data were processed

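Aortic valve RNA (TruSeq RNA kit, Illumina HiSeq) was aligned to mm10. The submitters' processing notes name TopHat2 2.0.13, Bowtie2 2.2.1, Cufflinks and Cuffdiff 2.1.1; another Bowtie2 version is given in the methods. The values the authors deposited are estimated counts per gene from Cuffdiff, not scaled for library size. Between 1.66% and 1.87% of values per library were not whole and were rounded. Cuffdiff can divide fragments that fit several genes, which bears on Rasip1 and Rap1a. Of 23107 gene symbols, 98.2% were matched to GENCODE M21 (GRCm38), which gave positions and lengths, and 4524 genes had no count.

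The 15354 genes that reached 10 counts in 3 or more of 6 libraries were compared in edgeR 4.0.16 (R 4.3.3) with TMM factors and the two-sided quasi-likelihood F test without covariates, with Benjamini-Hochberg adjustment over all genes and a threshold of 0.05. CPM are scaled by TMM. The biological coefficient of variation was 0.278. Groups came from the deposited labels. The pipeline was tested on simulated counts. Alternatives were DESeq2 1.42.0, upper-quartile factors, no filter, a mean count of at least 100, limma-voom (limma 3.58.1), plain or weighted by sample quality, a block for the replicate number, leaving out each library, and other gene lengths.

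The 10 members and the lists were chosen with earlier results of these data known. Named genes are the members, up to 3 genes per pathway list with the smallest unadjusted p, the 5 genes most like Rapgef5, and marker genes near 0 that define another cell type. Cldn5, Robo4, Klf4, Thbd, Nos3, Thbs1, Adamts1, Adamts4, Adamts5, Crk, Crkl, Ccm2, Pdcd10, Adcy4, Hba-a1 and Hbb-b1 were named beyond this rule after their values were seen. Not every gene the rule selects is described. Protein sequences were not used here.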

Additional observations from a re-analysis of the deposited data

How the results depend on the processing

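Rapgef5 was lower in the mutants under 13 of 13 alternatives, with a log2 fold change from -0.68 to -0.59, the same range as over the fits that left out each library. Since Rapgef5 was chosen for groups that do not overlap, its direction without a library was fixed by the choice and is no sign of stability. Of 117 values of the other 9 members under these alternatives, 14, in 5 members, had the opposite sign (counted before rounding), all between -0.06 and 0.10, and the lowest adjusted p was 0.901. DESeq2 called 26 genes and edgeR 0, and DESeq2 called 0 of those 9 members. With any single library removed, 0 genes were called. Deviations of same-numbered libraries correlated at 0.29, 0.08 and 0.03. Control replicates 1 and 3 correlated best with the mutant of their own number, the latter at 0.03 beside 0.02 with mutant replicate 1. Control replicate 2 correlated best with mutant replicate 3, at 0.2. So few libraries cannot decide whether the replicate numbers pair them. With a replicate block, 0 genes were called and Rapgef5 stood at -0.64. The order of levels rests on the length used: 6 of 10 members kept their rank with the longest transcript and 2 of 10 with coding length. The difference in the Rapgef5 share, -2.51 percentage points, was -3.55 without division by length, and -3.17 with the longest transcript and -4.94 with coding length, both added after seeing the data. With 3 libraries per group, the smallest change that could be called was not determined here. The cause of the differences between settings was not tested beyond their construction.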
